A study of Danio rerio with 30 samples.

Results

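Transcript levels of 8 genes that encode transcription factors of the zebrafish heart fields were followed in embryos deficient in the paralogues Tbx5a and Tbx5b. The genes were *nkx2.5*, *nkx2.7*, *gata4*, *gata5*, *gata6*, *hand2*, *mef2ca* and *isl1*. They were chosen by name as regulators that act with Tbx5 in the heart field, and all 8 were found by gene name among the 14648 loci of the triplicate experiment and of the preliminary experiment at 21 hours post fertilization (hpf), and among the 31874 loci of the preliminary experiment at 18 hpf.

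The heart of vertebrates arises from paired fields of lateral plate mesoderm, in which a small set of transcription factors bind DNA together and switch on the genes of contractile heart muscle. The T-box factor Tbx5 belongs to this set, and in mouse and human it is known to act with Nkx2-5 and Gata4. In zebrafish, *gata5* and *hand2* are needed to form a normal number of heart muscle cells, *nkx2.5* and *nkx2.7* share the task of keeping heart chambers distinct, and *isl1* marks cells that are added late to the inflow end of the heart. None of the 8 genes is used by the heart alone, and RNA was taken from whole embryos, so a level covers all tissues that use the gene.

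Embryos were of the \*AB strain, and deficient embryos had been injected at the single cell stage with morpholinos, antisense oligonucleotides against *tbx5a*, *tbx5b* or both. The triplicate experiment, with eyes removed, had 8 groups of 3 libraries: wildtype, embryos deficient in Tbx5a, in Tbx5b or in both, each at 18 and at 21 hpf. Injected embryos are called Tbx5a, Tbx5b and double morphants below. Eyes were kept in the preliminary experiment, which had no double morphants and 1 library for every other combination. Each library held 10 pooled embryos, and the sources used here do not say what, if anything, the wildtype embryos were injected with. A morpholino lowers the product of its target without removing the gene, and the *tbx5b* morpholino blocks translation, so its target's transcript does not check the labels.

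Levels are in FPKM, a count of sequenced fragments scaled by transcript length in kilobases and by the number of mapped fragments, each with a lower and an upper confidence bound that the authors deposited. The 3 libraries of a group in the triplicate experiment were combined by the authors into 1 value, so no spread between libraries could be computed, and the groups of the preliminary experiment had no replicate. No p-value was therefore computed, and differences were read against the bounds, whose level is not given. For each comparison a pseudocount of 1 was added to both FPKM values and the log2 of their ratio taken, so that differences of low genes are understated. A gene was kept in a comparison when its values were marked usable in both groups and reached 1 FPKM in at least 1 of them, and it was called when this log2 ratio reached 1 or -1 and the bounds were apart.

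How many reads each library held is unknown. The paper gives only a total per experiment, which was larger for the preliminary experiment although it had fewer libraries. Among genes of at least 10 FPKM the median distance from value to upper bound was 44.0% to 45.7% of the value in triplicate groups, 31.0% to 31.1% in preliminary libraries of 18 hpf and 26.6% in those of 21 hpf. The targeted gene *tbx5a* had 0.982 to 1.90 FPKM over the triplicate groups with overlapping bounds. Of the preliminary libraries, that with the Tbx5b label at 18 hpf had 5.30 against 1.11 FPKM in wildtype and that with the Tbx5a label at 21 hpf 16.1 against 2.51 FPKM, both called higher. The *tbx5a* transcript was thus high under different labels at each stage. Whether a preliminary label is wrong at 1 of them was not tested. *tbx5b* was highest under the Tbx5b label at both stages, with overlapping bounds. It had 0.478 against 0.325 FPKM in wildtype at 18 hpf and 2.45 against 1.39 FPKM at 21 hpf. In the triplicate groups *tbx5b* had 0.07 to 0.23 FPKM and was not kept. Preliminary libraries are named by their labels throughout, and values under 1 label at different stages may not be of the same treatment. Eye markers summed to 7.60 and 8.94 FPKM in triplicate wildtype embryos at 18 and 21 hpf and to 27.5 and 253 FPKM in the preliminary wildtype libraries. They also differed within the experiments at 21 hpf, with 18.9 FPKM in triplicate Tbx5b morphants and 138 FPKM under the preliminary Tbx5b label, and their part in the members' values was not tested.

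None of the 8 genes was called in any of the 14 comparisons made, in which 0.0772% to 1.65% of all genes tested were called. In each of the 28 pairs of triplicate groups, the bounds of each gene overlapped. Of all genes kept, 0.252% to 0.316% had bounds apart in the triplicate comparisons against wildtype, and 0.597% to 1.43% in those between stages. The largest departures from wildtype in the triplicate experiment were a lower *gata6* value in Tbx5a morphants at 21 hpf, at 16.2 against 31.5 FPKM, and higher *mef2ca* and lower *gata4* values in double morphants, at 21 hpf for the former and 18 hpf for the latter. In each case the bounds of the groups overlapped. In whole embryos, fewer cells of a type and less RNA per cell cannot be told apart.

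The levels of the members formed a graded order. In wildtype embryos of the triplicate experiment at 18 hpf the order ran from *gata5* at 29.1 FPKM through *gata6*, *hand2*, *isl1*, *nkx2.7*, *mef2ca* and *gata4* to *nkx2.5* at 3.68 FPKM. *gata5* was the highest of the 8 in 6 of the 8 groups and *gata6* in the other groups, wildtype embryos and double morphants at 21 hpf. *nkx2.5* and *gata4* were the lowest pair in all 8 groups. Neighbours in this order had overlapping bounds in every group, so only genes farther apart in it, such as *gata5* and *gata4*, were separated by their bounds.

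**Figure D1:**
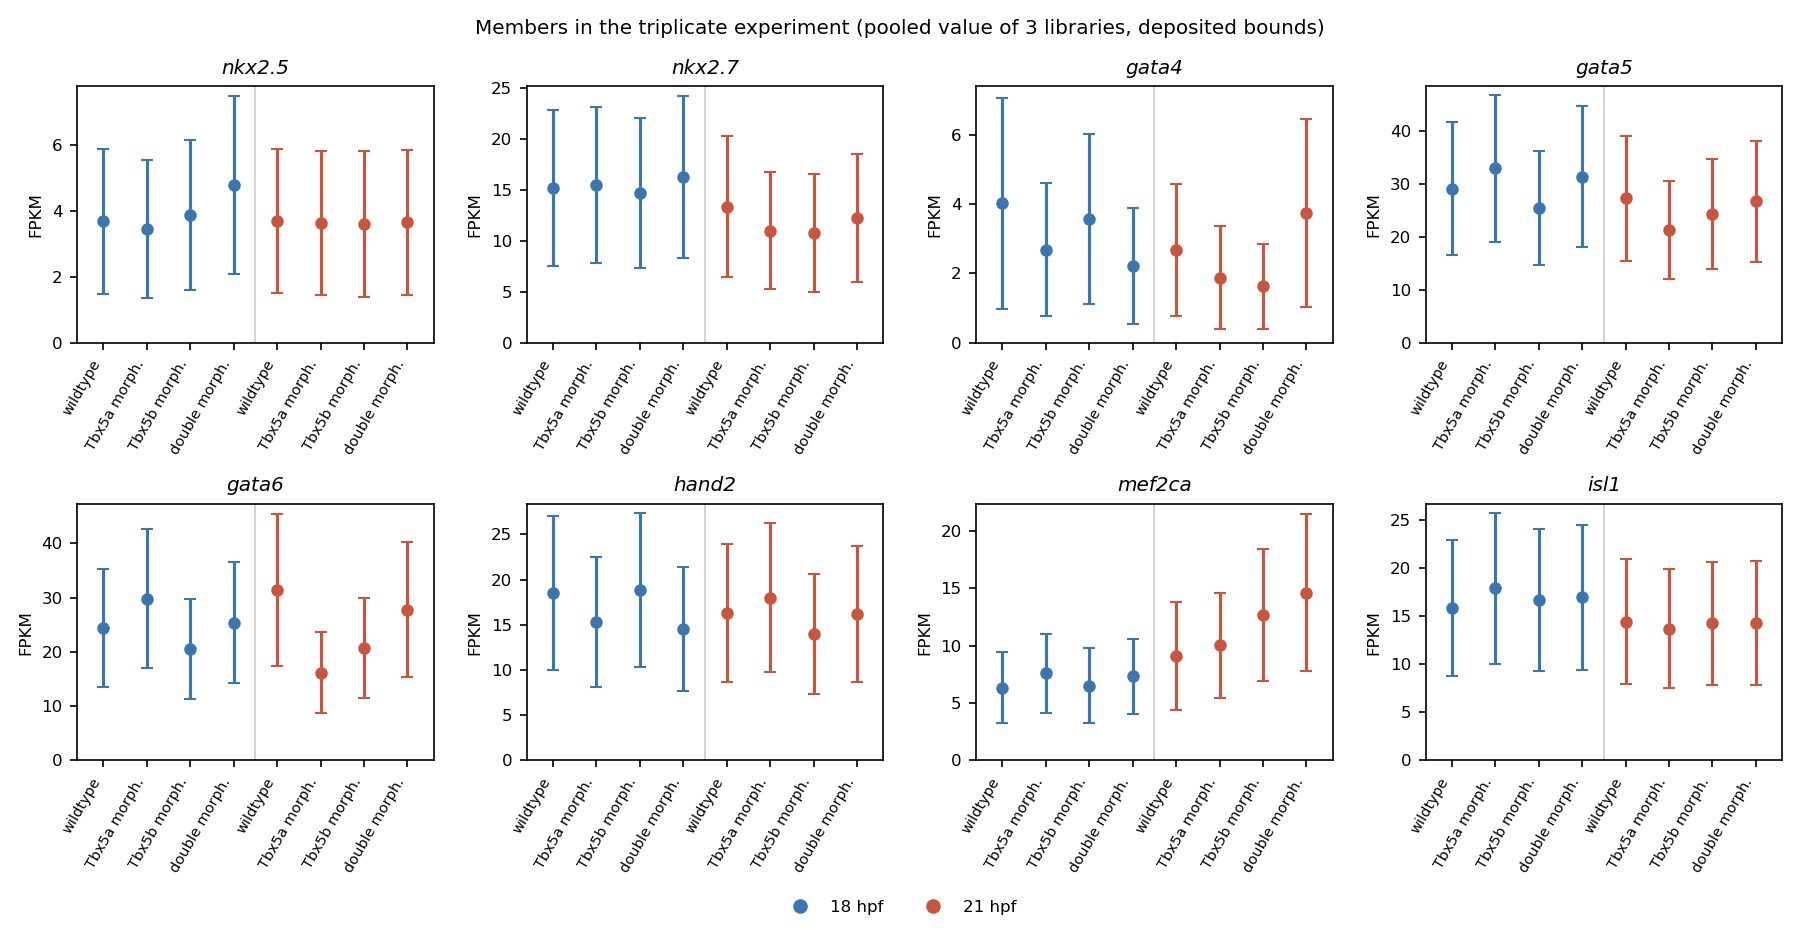
FPKM (linear axis from 0) of each of the 8 genes in the 8 groups of the triplicate experiment, 18 hpf in blue and 21 hpf in red. Points are the authors' pooled value of 3 libraries and bars run between the deposited lower and upper bounds. Within each panel the bars of all groups overlap, and the points of *mef2ca* lie highest at 21 hpf, up to 14.6 FPKM.

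The NK homeobox genes *nkx2.5* and *nkx2.7* encode related factors of the tinman type, named after the fly gene without which no heart forms. *nkx2.5*, listed at chromosome 14 from 23943996 to 23946789, was at 3.68 FPKM in 18 hpf wildtype embryos, 3.45 FPKM in Tbx5a, 3.86 FPKM in Tbx5b and 4.78 FPKM in double morphants. At 21 hpf its values in the same order were 3.70, 3.63, 3.61 and 3.65 FPKM. The 4 groups at 21 hpf thus lay within 1.02-fold of each other, with a coefficient of variation of 1.05%. Those at 18 hpf lay within 1.38-fold, with double morphants highest. The bounds of *nkx2.5* were wide, 1.47 to 5.89 FPKM in the wildtype group of 18 hpf. At the mean relative width of its bounds over the triplicate groups, groups would have had to differ by 3.96-fold for the bounds to separate. A smaller difference would not have separated bounds of that width.

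*nkx2.7*, listed at chromosome 8 from 50296213 to 50299296, had 15.2, 15.5, 14.7 and 16.3 FPKM at 18 hpf in the same order. At 21 hpf the values were 13.3, 11.0, 10.8 and 12.2 FPKM. Every group at 21 hpf was below every group at 18 hpf, although the bounds overlapped, for instance 6.42 to 20.2 FPKM in wildtype of 21 hpf and 7.52 to 22.8 FPKM in wildtype of 18 hpf. *nkx2.7* was the more abundant of the pair throughout, 2.99 to 4.48 times the level of *nkx2.5* in the triplicate groups, with bounds apart in 6 of 8.

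In the preliminary experiment *nkx2.7* had 18.6 FPKM (bounds 12.7 to 24.6) in wildtype at 18 hpf, 12.1 FPKM under the Tbx5a label and 10.7 (7.03 to 14.3) FPKM under the Tbx5b label. Both deficient libraries were lower, by log2 ratios of -0.59 and -0.75, and shared the wildtype library. Of all genes kept, 10.3% and 6.66% lay at least as far from 0. At 21 hpf the order was different, with 7.21 FPKM in wildtype, 7.07 FPKM under the Tbx5a label and 11.4 (7.91 to 14.8) FPKM under the Tbx5b label. The library with the Tbx5b label was the lowest of 3 at 18 hpf and the highest of 3 at 21 hpf, each time with bounds that overlapped those of wildtype. *nkx2.5* had 2.75, 3.53 and 2.23 FPKM at 18 hpf and 3.91, 3.39 and 3.75 FPKM at 21 hpf in the same order of labels, with overlapping bounds.

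The GATA zinc finger genes *gata4*, *gata5* and *gata6* act in endoderm as well as in the heart fields, and *gata5* mutant zebrafish form too little heart muscle. *gata5*, at chromosome 23 from 7445828 to 7457028, was at 29.1 FPKM in 18 hpf wildtype embryos and at 32.9, 25.5 and 31.4 FPKM in Tbx5a, Tbx5b and double morphants. At 21 hpf it had 27.3, 21.3, 24.3 and 26.7 FPKM. Its highest and lowest groups differed by 1.55-fold, while its bounds needed 2.5-fold to separate, the smallest such limit among the 8 genes.

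*gata6*, at chromosome 2 from 4367374 to 4376919, had 24.4, 29.8, 20.6 and 25.4 FPKM at 18 hpf in the same order of groups. The 21 hpf values were 31.5 (17.5 to 45.4) FPKM for wildtype, 16.2 (8.75 to 23.6) for Tbx5a morphants, 20.7 (11.5 to 29.9) for Tbx5b morphants and 27.8 FPKM for double morphants. Embryos deficient in either paralogue alone thus had the lowest values, and double morphants a value closer to wildtype. The log2 ratios were -0.92, -0.58 and -0.17. The Tbx5a morphants had 0.514 times the wildtype level, and the extremes of the bounds allowed 0.192 to 1.35 times.

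Of the genes kept in these comparisons, 2.02% lay at least as far from 0 as *gata6* of Tbx5a morphants and 3.16% as that of Tbx5b morphants. The summed FPKM of all genes differed alongside, at 1293230 for wildtype, 874236 for Tbx5a morphants, 968416 for Tbx5b morphants and 948270 for double morphants. With each group rescaled to the same sum, the *gata6* ratios of Tbx5a and Tbx5b morphants were -0.38 and -0.18, and that of double morphants turned to 0.26. This rescaling moved the median of all genes in the same comparisons by 0.48, 0.36 and 0.38. Relative to the median of all genes, *gata6* was lower in all 3 deficient groups with either scaling. The log2 ratios were -0.90 to -0.14 as deposited and -0.84 to -0.09 rescaled. These ratios share 1 wildtype group, which had the highest *gata6* value of the 8 triplicate groups, so they are not independent of each other.

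Marker lists were summed in the same groups. The 8 cardiomyocyte markers, among them *myl7* and *vmhc*, summed to 595 FPKM in 21 hpf wildtype embryos and to 402, 457 and 538 FPKM in Tbx5a, Tbx5b and double morphants. None was called, beside 0.298%, 0.224% and 0.277% of all genes tested, and *nppa* was at or near 0 in each group. All 6 cardiomyocyte markers kept had log2 ratios below 0 in Tbx5a and in Tbx5b morphants. The 6 endoderm markers, among them *foxa2*, summed to 67.3, 56.5, 58.1 and 57.5 FPKM in the same order, with *sox17* and *sox32* near 0. Erythroid markers summed to 700, 401, 441 and 465 FPKM. Rescaled to the same sum of all genes, the cardiomyocyte sums of morphants were 460, 471 and 567 against 460 in wildtype and the endoderm sums 64.6, 60.02 and 60.6 against 52.0, so that these sums were no longer below wildtype, while the erythroid sums of 458, 455 and 490 remained below 541. The same rescaling moved the median log2 ratio of all genes to 0.46, 0.32 and 0.35 in Tbx5a, Tbx5b and double morphants. A rescaled sum above wildtype can thus still lie below the median of all genes. The part of these lists in the *gata6* values was not tested.

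In the preliminary experiment at 21 hpf *gata6* had 27.7 FPKM in wildtype, 27.8 FPKM under the Tbx5a label and 32.0 FPKM under the Tbx5b label. No deficient library was below wildtype there. At 18 hpf *gata6* was listed at 0 in all 3 libraries, on an unplaced scaffold. All 1225 genes on unplaced Zv9 scaffolds were listed at 0 in these 3 libraries, against 5856 of 30649 genes, or 19.1%, elsewhere. The zeros of *gata6* therefore follow its scaffold and are not used as a level, and 7 of the 8 genes were kept at that stage.

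*gata4*, at chromosome 20 from 53146771 to 53162461, was the lowest of the GATA genes. Its values at 18 hpf were 4.03 (0.967 to 7.09) FPKM for wildtype, 2.68 FPKM for Tbx5a morphants, 3.57 FPKM for Tbx5b morphants and 2.22 (0.549 to 3.89) FPKM for double morphants. At 21 hpf it had 2.68, 1.87, 1.62 and 3.75 (1.03 to 6.46) FPKM. Its value in double morphants was thus the lowest of the 4 at 18 hpf and the highest at 21 hpf. The log2 ratio of -0.64 at 18 hpf was exceeded in size by 1.09% of kept genes. The bounds of *gata4* were nevertheless the widest among the members, and groups would have had to differ by 6.68-fold for them to separate. Over the 8 groups its highest and lowest values differed by 2.48-fold, the largest ratio among the 8 genes.

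*gata5* had 7.12 to 15.0 times and *gata6* 5.76 to 12.8 times the level of *gata4* in the triplicate groups, with bounds apart in 8 of 8. *gata4* made up 3.48% to 7.20% of the summed level of the 3 genes. In the preliminary libraries at 21 hpf its share was 16.1% to 18.7%, with 9.17 FPKM in wildtype and 9.74 and 12.6 FPKM under the Tbx5a and Tbx5b labels. At 18 hpf of that experiment *gata4* had 6.09, 5.92 and 5.88 FPKM, within 1.04-fold of each other. *gata5* had 27.5, 23.0 and 23.8 FPKM at 18 hpf and 20.2, 17.7 and 23.0 FPKM at 21 hpf in the same libraries. Neither gene had bounds apart from those of the wildtype library at either stage. *gata5* and *gata6* had overlapping bounds with each other in all 8 triplicate groups and in all 3 preliminary libraries at 21 hpf.

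*hand2* encodes a basic helix-loop-helix factor of the heart fields, pharyngeal arches and pectoral fin fields. Listed at chromosome 1 from 37473974 to 37475834, it was at 18.6 (10.0 to 27.1) FPKM in 18 hpf wildtype embryos, 15.3 FPKM in Tbx5a, 18.8 FPKM in Tbx5b and 14.5 FPKM in double morphants. The groups that received the *tbx5a* morpholino were the lower pair at this stage, with log2 ratios of -0.26 and -0.34. Of the genes kept, 19.5% and 13.8% lay at least as far from 0 in these comparisons. At 21 hpf the values were 16.3, 18.0, 14.0 and 16.2 FPKM, and Tbx5a morphants were the highest. The preliminary libraries had 15.4, 14.7 and 12.7 FPKM at 18 hpf and 14.2, 12.9 and 12.4 FPKM at 21 hpf for the wildtype, Tbx5a and Tbx5b labels. There the morphant libraries were below wildtype in 4 of 4 comparisons, by log2 ratios of -0.26 to -0.06, all with overlapping bounds. They were also below in 4 of 4 relative to the median of all genes with either scaling. The comparisons of a stage share 1 wildtype library. Under the Tbx5a and Tbx5b labels, 6 and 7 of the 7 members kept were below it at 18 hpf. At 21 hpf 5 and 2 of 8 were. The members below it at 18 hpf include *mef2ca*, whose wide bounds at that stage are given below. The highest and lowest triplicate groups of *hand2* differed by 1.34-fold, where 2.73-fold would have separated the bounds.

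*isl1*, which RefSeq's annotation of GRCz12tu lists as isl1a, encodes a LIM homeobox factor that is also a marker of motor and sensory neurons. At chromosome 5 from 40128460 to 40133874 it had 15.8 FPKM in wildtype embryos at 18 hpf and 17.9, 16.6 and 16.9 FPKM in Tbx5a, Tbx5b and double morphants. At 21 hpf it had 14.4, 13.7, 14.2 and 14.3 FPKM, within 1.06-fold, with a coefficient of variation of 2.35%. It varied least of the members over the 8 groups, with a highest over lowest ratio of 1.31, and its bounds would have separated at 2.61-fold. The 7 motor neuron markers summed to 10.8 to 14.7 FPKM over the triplicate groups. The preliminary libraries had 17.9, 14.8 and 13.0 FPKM of *isl1* at 18 hpf and 16.5, 15.6 and 19.0 FPKM at 21 hpf in the same order of labels. The largest of these ratios was -0.43, for the Tbx5b-labelled library at 18 hpf.

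*mef2ca* encodes a MADS-box factor of cardiac and skeletal muscle that also patterns the jaw in zebrafish. Listed at chromosome 10 from 43719046 to 43826987, it had 6.35 FPKM in wildtype embryos at 18 hpf and 7.59, 6.52 and 7.32 FPKM in Tbx5a, Tbx5b and double morphants. The 21 hpf values were 9.08 (4.40 to 13.8) FPKM for wildtype, 10.0 FPKM for Tbx5a morphants, 12.7 FPKM for Tbx5b morphants and 14.6 (7.75 to 21.4) FPKM for double morphants. All morphant groups were above wildtype at both stages. The log2 ratios at 21 hpf were 0.13, 0.44 and 0.63, and those at 18 hpf 0.22, 0.03 and 0.18. Relative to the median of all genes the ratios were above 0 in all 6 triplicate comparisons with either scaling. The comparisons of a stage share 1 wildtype group.

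Double morphants at 21 hpf had 1.61 times the wildtype level, and the extremes of the bounds allowed 0.563 to 4.87 times. Of the genes kept, 5.07% lay at least as far from 0 in that comparison and 7.76% in Tbx5b morphants. In the preliminary experiment at 21 hpf *mef2ca* had 24.7 (18.3 to 31.1) FPKM in wildtype, 36.7 (27.2 to 46.1) FPKM under the Tbx5a label and 41.4 (30.7 to 52.1) FPKM under the Tbx5b label. The latter was 1.68 times wildtype, from 0.987 to 2.85 by the extremes of the bounds, which overlapped only between 30.7 and 31.1 FPKM. The Tbx5a-labelled library had 1.49 times the wildtype level. Of the genes kept, 0.884% lay at least as far from 0 in that comparison and 5.15% in that of the Tbx5b label. All genes differed less under the Tbx5a label, with 5th and 95th percentiles of -0.22 and 0.25 against -0.56 and 0.55. At 18 hpf the preliminary libraries had 26.6 (1.64 to 51.6), 21.4 and 23.9 FPKM, with both morphant libraries below wildtype. The gene model there had 4 transcription starts, against 1 in the other sets of values, and bounds too wide to read a difference from.

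The related genes *mef2cb*, *mef2d* and *mef2aa* were set beside *mef2ca*, the latter pair after their values had been seen. In the triplicate experiment at 21 hpf *mef2cb* had 4.36, 4.69, 5.18 and 7.10 FPKM and *mef2d* 7.08, 9.75, 10.6 and 13.7 FPKM in wildtype embryos and in Tbx5a, Tbx5b and double morphants. Both thus had the order of groups seen for *mef2ca*. The 4 genes gave 12 log2 ratios against wildtype at each stage. At 21 hpf all 12 were above 0 with either scaling, from 0.02 to 0.86 as deposited. As deposited, all 12 were also above the median of all genes. Rescaling moved that median to 0.46, 0.32 and 0.35 in Tbx5a, Tbx5b and double morphants. Rescaled, *mef2aa* was below the median in Tbx5a morphants, at 0.41, and in Tbx5b morphants, at 0.23. At 18 hpf all 12 were above 0 as deposited, from 0.03 to 0.44. When the groups were rescaled to the same sum, 11 of 12 were. These 12 include *mef2aa*, which had 0.653 to 0.976 FPKM in the triplicate groups of that stage. It did not reach the 1 FPKM needed to be kept there. The ratios of a stage share 1 wildtype group, so they are not independent of each other.

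In the preliminary libraries the 8 ratios at 21 hpf were above 0, from 0.04 to 0.78, and 1 of 8 at 18 hpf. Of all these mef2 ratios, only that of *mef2d* in the Tbx5b-labelled library at 21 hpf, at 34.7 against 19.8 FPKM, had bounds apart. Its log2 ratio of 0.78 was below the limit for a call. In that comparison 4.09% of all genes kept had bounds apart, the largest share of any comparison made. Skeletal muscle markers, among them *mylpfa* and *actc1b*, summed to 3531, 2897, 3973 and 4734 FPKM in the triplicate groups at 21 hpf and to 1849, 2162, 1217 and 2082 FPKM at 18 hpf. Their sum was highest in double morphants at 21 hpf, as *mef2ca* was. In Tbx5a morphants of that stage it was below wildtype as deposited and above it when rescaled, at 3314 against 2730. The same rescaling moved the median log2 ratio of all genes to 0.46, so the rescaled sum does not place the markers above other genes. As deposited, 3 of the 6 markers had log2 ratios above 0. In the preliminary libraries the sum was 7163, 7936 and 6207 FPKM at 21 hpf. The part of the muscle markers in the *mef2ca* values was not tested.

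**Figure D2:**
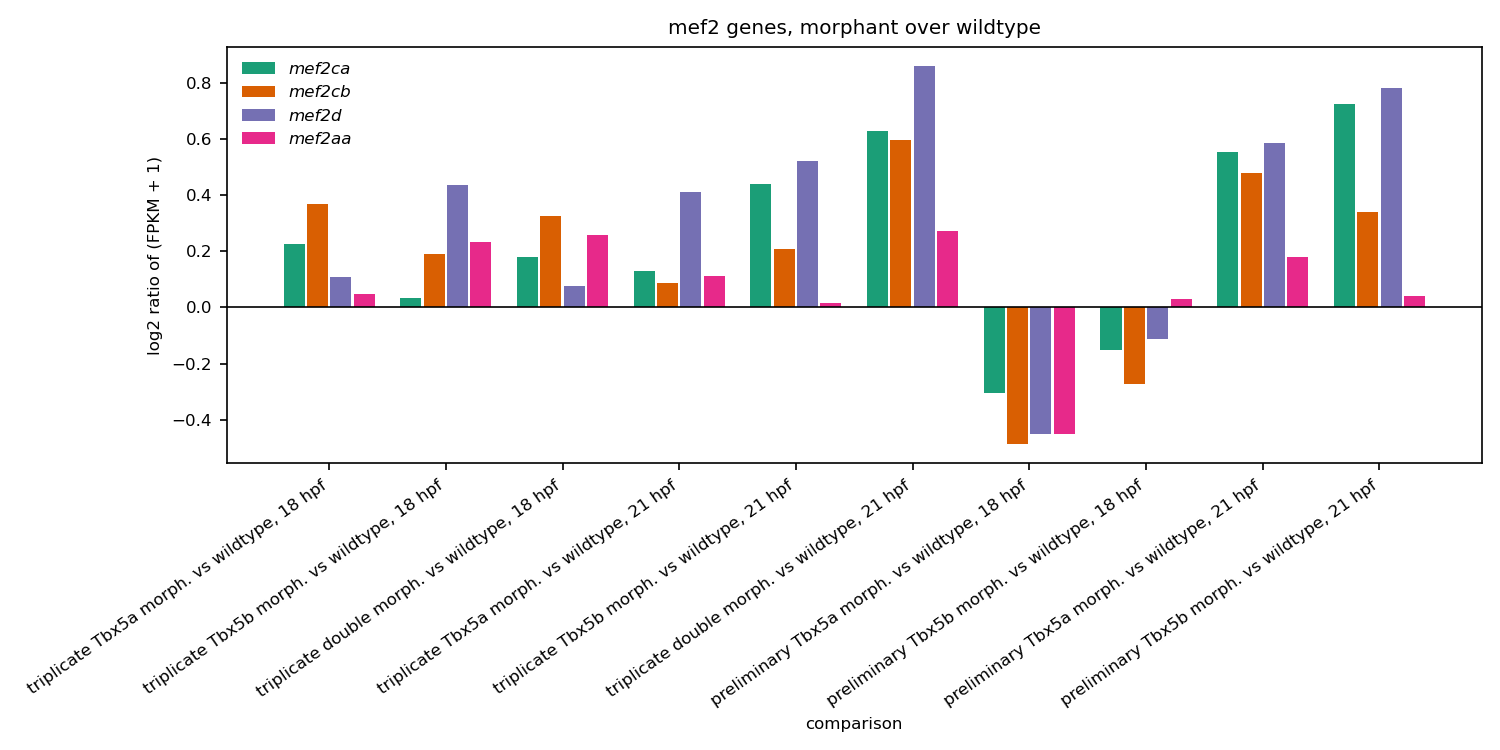
Log2 ratios of FPKM plus 1, morphant over wildtype of the same stage and experiment (vertical axis), for *mef2ca*, *mef2cb*, *mef2d* and *mef2aa* in 10 comparisons (horizontal axis). Bars start at 0. They point up in the triplicate comparisons and in the preliminary ones at 21 hpf, up to 0.86. In 7 of 8 preliminary ratios at 18 hpf they point down. *mef2aa* was below 1 FPKM in all triplicate groups at 18 hpf.

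The members were then read together against wildtype. In the triplicate experiment 0 of 8 were called at 18 hpf in Tbx5a, Tbx5b or double morphants, beside 0.255%, 0.254% and 0.237% of all genes tested. At 21 hpf 0 of 8 were called, and the shares of all genes were 0.298%, 0.224% and 0.277%. Of the 7 members kept in preliminary libraries at 18 hpf 0 were called, beside 1.57% of all genes under the Tbx5a label and 1.58% under the Tbx5b label. At 21 hpf 0 of 8 were called, beside 0.0772% and 1.65%. With so few genes called, a count of 0 among 8 does not set the members apart from other genes.

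Over the 48 triplicate ratios against wildtype, 20 were above and 28 below 0, from -0.92 to 0.63, with a median size of 0.16. With each group rescaled to the same sum, 36 were above and 12 below 0, and relative to the median of all genes 26 were above and 22 below as deposited and 24 and 24 rescaled, so the balance of directions depends on the scaling. Only 4 reached 0.5 in size, as deposited, and no pair of bounds was apart. Bounds were apart for 0.252% to 0.316% of all genes kept in these comparisons, so their overlap does not set the members apart. The median log2 ratio of the members was 0.10, -0.01 and 0.09 at 18 hpf and -0.16, -0.18 and -0.01 at 21 hpf for Tbx5a, Tbx5b and double morphants. The same median over all genes kept was -0.04, -0.01 and -0.03, and then -0.02, -0.04 and -0.03. The summed level of the 8 genes was 117, 125, 110 and 119 FPKM at 18 hpf in wildtype and the morphant groups, and 118, 95.7, 102 and 119 FPKM at 21 hpf. The lower sums of embryos deficient in 1 paralogue at 21 hpf came mostly from *gata6* and *gata5*. When rescaled these sums were above wildtype, at 109 and 105 against 91.4. The rescaling also moved the median log2 ratio of all genes, to 0.46 and 0.32. Relative to that median, 2 members were above and 6 below in each of these comparisons.

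Over the 30 preliminary ratios, 10 were above and 20 below 0, from -0.75 to 0.72, with a median size of 0.20. At 18 hpf the members' median was -0.25 under the Tbx5a label and -0.22 under the Tbx5b label, where all 7 members kept were below 0. Among these 7, *gata4* was at -0.04 and *mef2ca* had bounds too wide to read a difference from. The medians of all genes kept were -0.03 and -0.02, and both comparisons share 1 wildtype library. Cardiomyocyte markers summed to 274 FPKM in the wildtype library, 205 and 201 FPKM in the morphant ones. Of the 6 kept, however, 4 were above 0 under the Tbx5a label, with a median of 0.19, and 1 was above 0 under the Tbx5b label, with a median of -0.18, and their part in the members' values was not tested. At 21 hpf the members' medians were -0.05 and 0.20, against -0.01 and -0.00 for all genes. The Tbx5b-labelled library at 21 hpf had 6 of 8 members above 0.

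**Figure D3:**
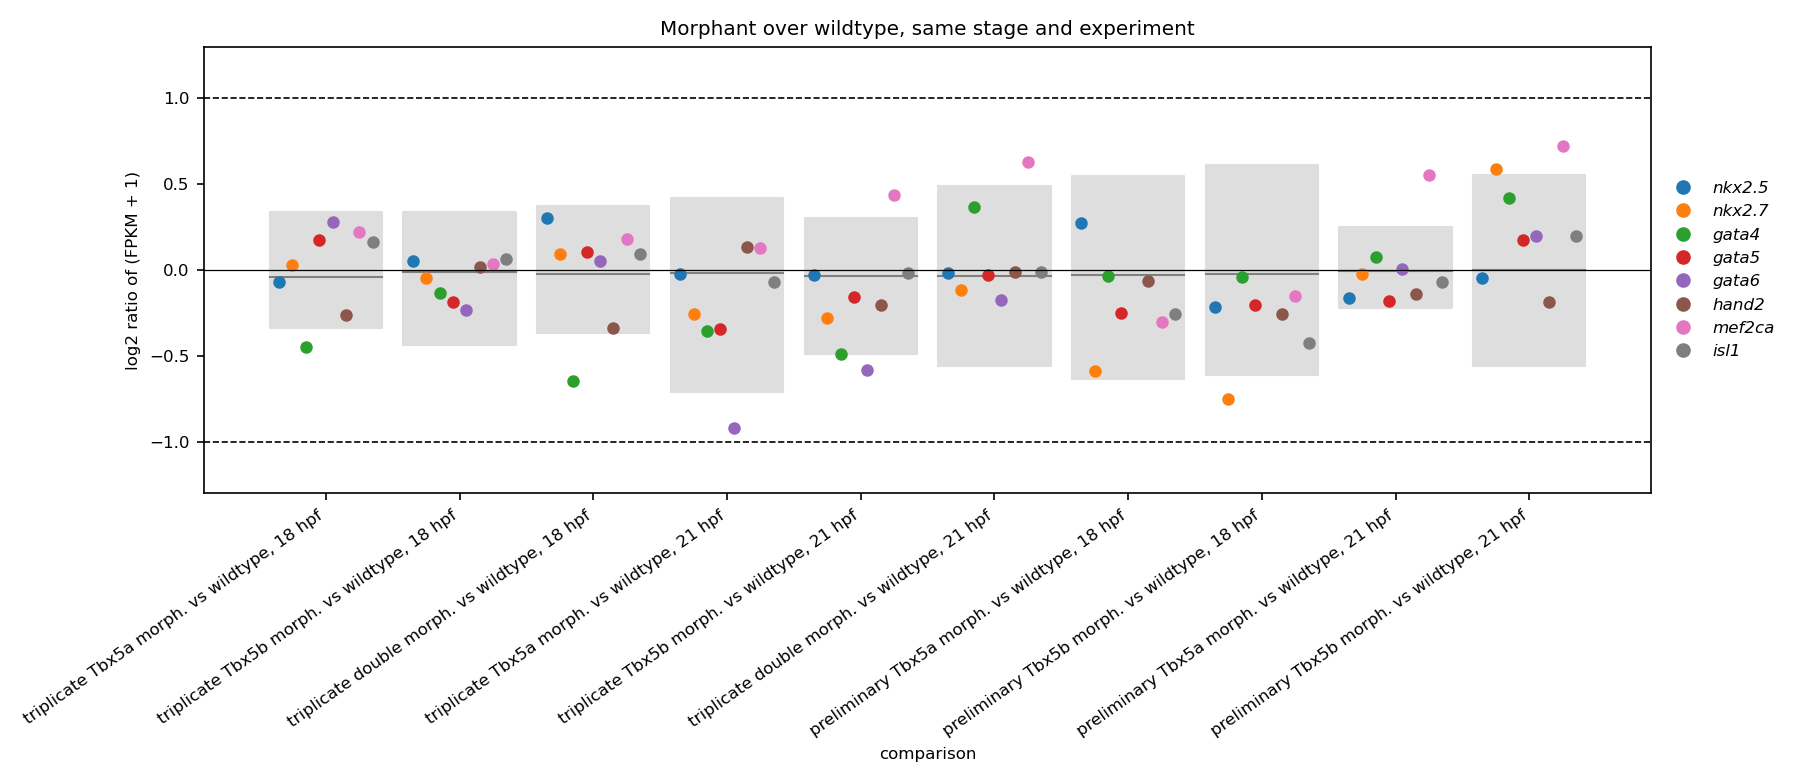
Log2 ratios of FPKM plus 1 (vertical axis) of the 8 genes, morphant over wildtype, in 6 triplicate and 4 preliminary comparisons (horizontal axis). Grey boxes hold the 5th to 95th percentile of all genes kept, grey lines are their median and dashed lines mark the ratio of 1 needed for a call. No point passes a dashed line, and *gata6* in triplicate Tbx5a morphants at 21 hpf is the farthest at -0.92.

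**Figure D4:**
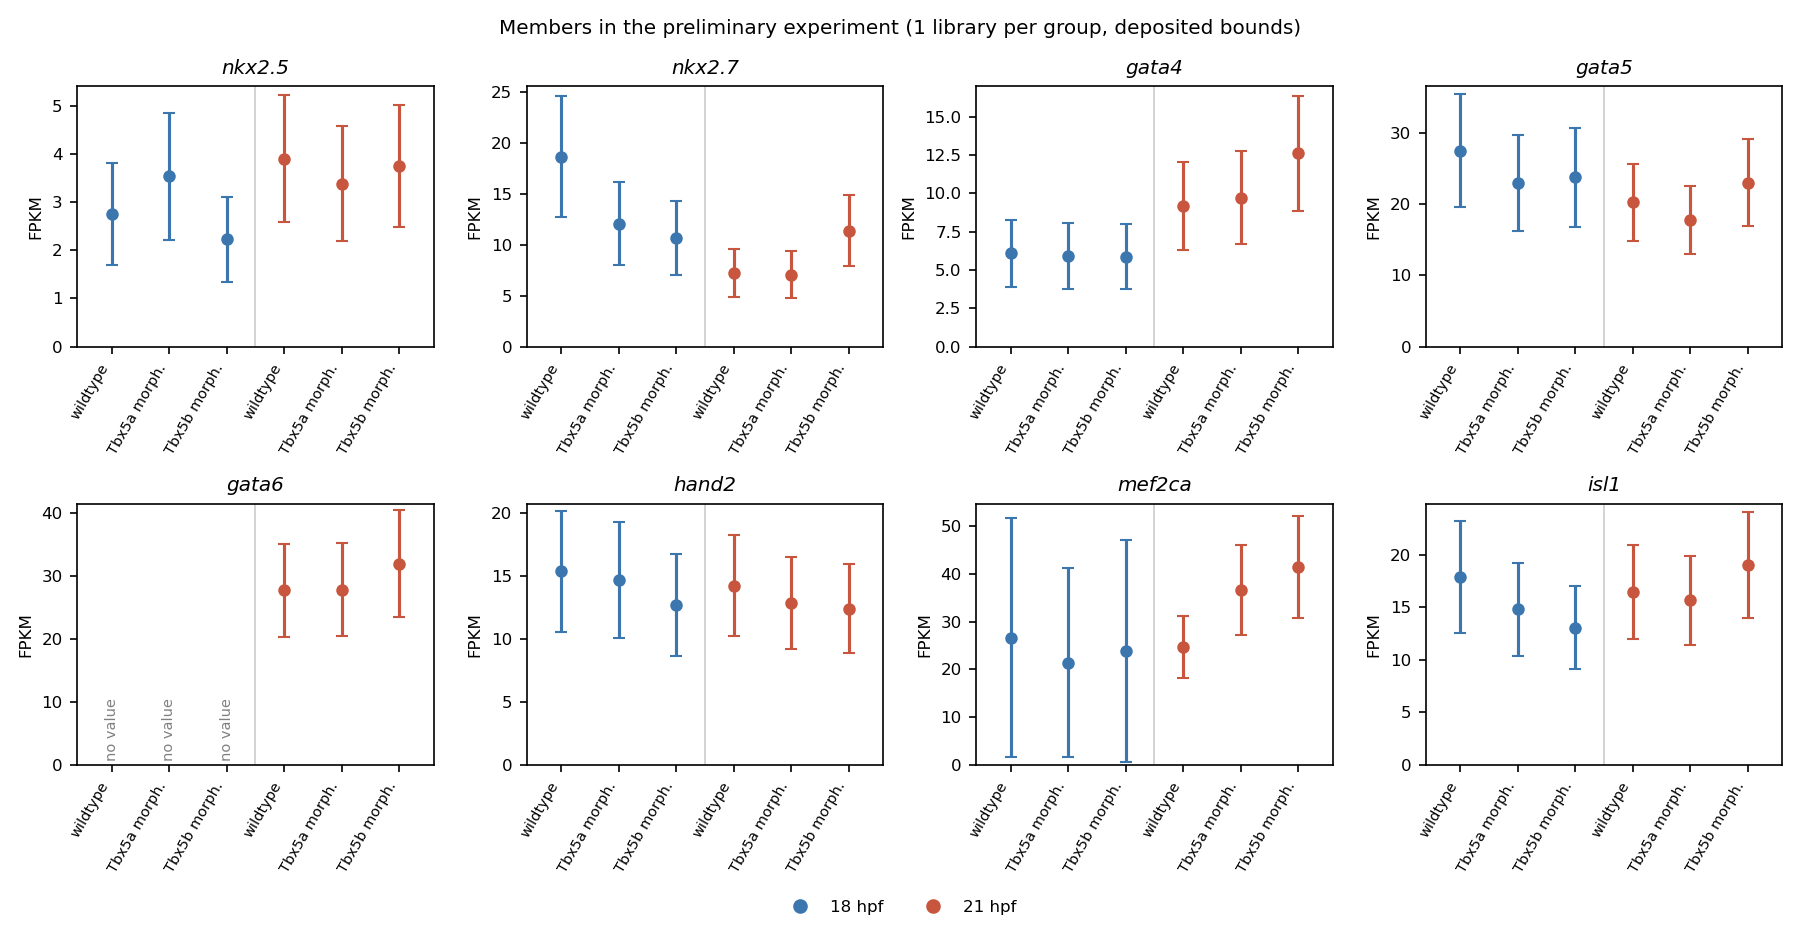
FPKM (linear axis from 0) of the 8 genes in the 6 libraries of the preliminary experiment, with the deposited bounds as bars, 18 hpf in blue and 21 hpf in red. The stages were normalized separately. *gata6* has no value at 18 hpf, and *mef2ca* has bounds of 1.64 to 51.6 FPKM in wildtype embryos at that stage.

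Stages were compared within each triplicate group, since the preliminary stages were processed separately. Against 18 hpf, 0 of 8 members were called at 21 hpf in wildtype embryos or in Tbx5a, Tbx5b or double morphants, beside 0.578%, 1.06%, 0.773% and 1.37% of all genes tested. *mef2ca* was higher at 21 hpf in 4 of 4 groups, by log2 ratios of 0.46, 0.36, 0.86 and 0.91. The last ratio, from 7.32 to 14.6 FPKM, was the largest of all members and was reached in size by 3.96% of genes kept. The skeletal muscle marker *tnnt3a* was called higher over the same interval, from 11.3 to 70.1 FPKM in wildtype embryos, while *mylpfa*, from 384 to 866 FPKM, had overlapping bounds.

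*nkx2.7*, *gata5* and *isl1* were lower at 21 hpf in 4 of 4 groups, by log2 ratios of -0.46 to -0.17 for *nkx2.7*, -0.61 to -0.07 for *gata5* and -0.36 to -0.13 for *isl1*. Relative to the median of all genes these directions, and that of *mef2ca*, were the same in all 4 groups with either scaling. *gata6* was higher at 21 hpf in wildtype embryos, by 0.35, and lower in Tbx5a morphants, at -0.84. The groups differed in this way without any bounds apart, and the difference between their ratios was not tested. *gata4* was lower in 3 of 4 groups, down to -0.80 in Tbx5b morphants, and higher in double morphants, by 0.56. *nkx2.5* stayed between -0.31 and 0.06.

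**Figure D5:**
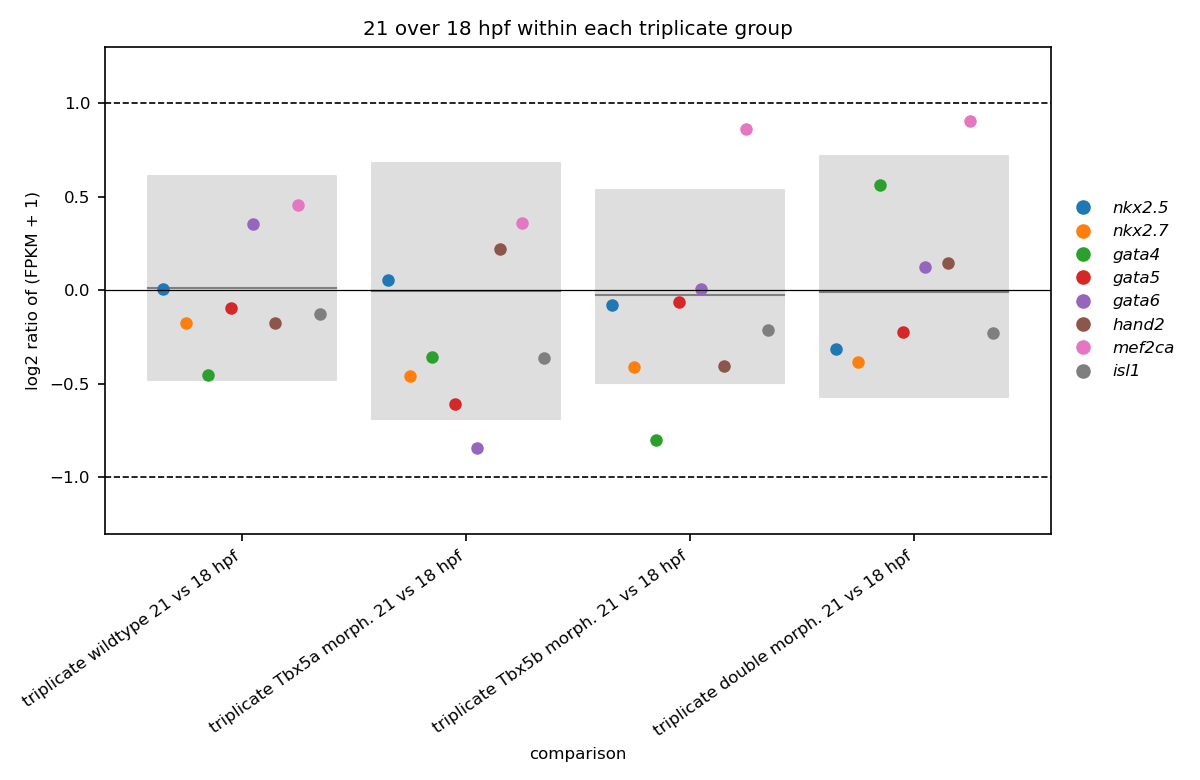
Log2 ratios of FPKM plus 1 (vertical axis) of the 8 genes at 21 over 18 hpf in the 4 groups of the triplicate experiment (horizontal axis). Grey boxes hold the 5th to 95th percentile of all genes kept, grey lines their median, and dashed lines mark the ratio of 1 needed for a call. *mef2ca* is the highest point in wildtype embryos and in Tbx5a, Tbx5b and double morphants, at 0.46, 0.36, 0.86 and 0.91.

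The wildtype levels of the experiments are set side by side, with the caution that they were normalized separately and differed in the removal of the eyes. *hand2*, *isl1*, *nkx2.5*, *gata5* and, at 21 hpf, *gata6* had 0.743 to 1.14 times their triplicate level in the preliminary libraries. *mef2ca* had 4.19 times its triplicate level at 18 hpf and 2.72 times at 21 hpf, and *gata4* 1.51 and 3.43 times. The preliminary *mef2ca* value at 18 hpf came from a gene model with 4 transcription starts and had the wide bounds given above. *nkx2.7* had 1.23 and 0.541 times. The members with the steadiest levels between triplicate groups, *isl1*, *nkx2.5* and *hand2*, were thus also close between experiments. *gata4* and *mef2ca*, which varied most, were not close at 21 hpf. Steadiness and closeness did not go together for every member. *gata6* differed 1.95-fold between triplicate groups and was at 0.881 times at 21 hpf, while *nkx2.7* differed 1.51-fold and was at 0.541 times.

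Likeness of pattern was described by Pearson's r of log2 FPKM plus 1 over the 8 triplicate groups, among 7680 genes with a mean of at least 5 FPKM. The 8 points are pooled values that share stage and scaling, so r carries no p-value. The closest gene to *mef2ca* was *klhl31*, a kelch gene of muscle, with r = 0.98 and 21.6 FPKM in wildtype embryos at 18 hpf and 60.3 FPKM in double morphants at 21 hpf. That of *gata6* was *tctex1d1*, with r = 0.95 and 10.3 FPKM in wildtype and 4.54 FPKM in Tbx5a morphants at 21 hpf. The closest genes to *nkx2.7*, *gata5* and *isl1* were *nipsnap1*, *zgc:158316* and *clptm1l*, with r of 0.99, 0.98 and 0.99, and an unnamed locus was closest to *hand2*, with r = 0.97. *nkx2.5* and *gata4* had only *tank* and *hkdc1* at r of at least 0.9, at 0.91 and 0.90. In contrast, *gata5* had 194 of the 7680 genes at that value or above, *nkx2.7* and *isl1* 122 each, *mef2ca* 57, *hand2* 21 and *gata6* 15. The closest gene to each of these was thus 1 of several with a high r.

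Among the members themselves, *nkx2.7* and *isl1* had r = 0.90, *nkx2.7* and *gata5* 0.85, *isl1* and *gata5* 0.80 and *gata5* and *gata6* 0.78. Many other genes had a higher r with each of them. Ranked by r, *isl1* was at rank 133 for *nkx2.7*, and *nkx2.7* at rank 129 for *isl1*. For *gata5*, *nkx2.7* was at rank 492, *isl1* at 788 and *gata6* at 941. Seen from *nkx2.7*, *isl1* and *gata6*, *gata5* was at ranks 294, 519 and 282. Such r values do not set the pairs apart from other genes. In Tbx5a morphants these 4 genes all had lower values at 21 than at 18 hpf. *mef2ca* ran opposite to *nkx2.7*, at -0.81, and to *isl1*, at -0.74. Of the other members, *gata4* was related most to *hand2*, at 0.59. Among all genes compared, however, *gata4* was at rank 1107 for *hand2*, and *hand2* at rank 254 for *gata4*.

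A list of 36 genes that act with or beside the members in heart field development was read in the same way, of which 34 were listed in the triplicate experiment. None was called in any of the 14 comparisons, in which 0.0772% to 1.65% of all genes tested were called, so this does not set the list apart. The median log2 ratio of the list against wildtype was 0.14, 0.02 and 0.05 at 18 hpf and -0.04, 0.02 and 0.14 at 21 hpf for Tbx5a, Tbx5b and double morphants. The medians of all genes kept were -0.04, -0.01 and -0.03 at 18 hpf and -0.02, -0.04 and -0.03 at 21 hpf. At 18 hpf in the preliminary libraries it was -0.23 under the Tbx5a label, with 24 of 30 genes kept below 0, and -0.11 under the Tbx5b label, with 21 of 29. The list was thus below wildtype in the libraries where most members were, and all share 1 wildtype library. At 21 hpf its medians were 0.01 and 0.11. The medians of all genes kept in these libraries were -0.03 and -0.02 at 18 hpf and -0.01 and -0.00 at 21 hpf.

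The T-box gene *tbx20*, a partner of the GATA and NK factors, was low, at 0.891 to 1.79 FPKM over the triplicate groups. The GATA cofactor gene *zfpm1* had 1.40 to 3.13 FPKM. *smarcd3b*, which encodes a chromatin remodelling subunit that in mouse joins Gata4 with Tbx5, had 5.60 FPKM in wildtype embryos at 21 hpf and 7.93, 8.22 and 8.40 FPKM in the morphant groups, with log2 ratios of 0.44, 0.48 and 0.51. At 18 hpf it had 10.3, 8.71, 9.93 and 7.66 FPKM, and wildtype was the highest. Preliminary libraries at 21 hpf had 25.7 FPKM of *smarcd3b* in wildtype and 25.9 and 21.4 FPKM under the Tbx5a and Tbx5b labels, without the higher values of the triplicate morphants. All these groups overlapped in their bounds for each of the 3 genes.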

How the data were processed

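RNA from 10 pooled embryos per library was converted to cDNA from oligo dT and sequenced as single-end 50 bp reads. The deposited values are in FPKM per gene with lower and upper bounds, made by the authors with TopHat 2.1.0, Cufflinks 2.2.1 and Cuffdiff 3.1.2, and the submitters' processing notes add Bowtie2 2.2.5.0. The paper's methods name Zv9 and the processing notes GRCz10. Unplaced loci of the preliminary 18 hpf set bear Zv9 scaffold names, and the build of the positions printed, counted from 1, is not named with the other values. A model over single libraries had been planned, but the values are pooled, so it was not run. Calls were made across all genes with Python 3.11.15, numpy 2.4.6 and pandas 2.3.3, and the rule was tested on simulated data. The genes named are the 8 members, *tbx5a*, *tbx5b*, the gene most like each member, 4 partner genes, any partner called against wildtype and up to 3 markers per list. The members and lists were chosen with earlier results of these data known. Symbols of 7 of the 8 members matched RefSeq's GRCz12tu annotation directly. The alternatives tried were a pseudocount of 0.1, no filter or a filter of 5 FPKM, no use of bounds, a limit of 1.5-fold, rescaling of each group to the same sum and centring on the median of all genes.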

Additional observations from a re-analysis of the deposited data

How the results depend on the processing

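The count of members called remained 0 in all 14 comparisons under each of the 7 alternatives. No member had bounds apart as deposited, so only leaving out the bounds or rescaling them could have changed this count. With a pseudocount of 0.1, the largest shift among 110 log2 ratios of members was 0.29. The sign of a ratio cannot change with the pseudocount, so it was not checked by this. Rescaling each group to the same sum moved the median log2 ratio of all genes by more than 0.1 in 10 of 14 comparisons, by -0.24 to 0.48, and changed the sign of 31 of the 110 ratios. With rescaling and centring on the median of all genes together, a choice made after seeing the data, 4 of the 110 differed in sign from the deposited ratio, *isl1* in Tbx5b morphants and *gata5*, *hand2* and *isl1* in double morphants, all at 21 hpf and at most 0.06 from 0. Centring without rescaling changed 7 signs, with shifts of at most 0.04. The closest gene stayed first for 3 of 8 members by Spearman's rho, for 5 with genes down to 1 FPKM and for 1 with stage means removed. By rho *tank* was at 0.55 and rank 209 for *nkx2.5*, *nipsnap1* at rank 79 for *nkx2.7* and *tctex1d1* at rank 16 for *gata6*. With stage means removed *klhl31* was at rank 25 for *mef2ca*. No paired analysis was possible because the columns hold pooled values without replicate numbers, and for the same reason no replicate could be left out. The width of the bounds limits what could be detected, at 2.5-fold for *gata5* to 6.68-fold for *gata4* in the triplicate experiment.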
